A study of Mus musculus with 59 samples.

Results

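The EGF family is described here by 10 of the 21706 genes measured, chosen by symbol: the ligand genes Areg, Ereg, Hbegf, Tgfa, Btc and Egf, the receptor genes Egfr, Erbb2 and Erbb3, and the inhibitor gene Errfi1. Expression was measured by RNA sequencing in 59 libraries from 29 mated female mice of about 2 to 6 months. Knockout (KO, epiERα-/-, Esr1f/-Wnt7aCre/+) females carried Wnt7aCre, a Cre line active in uterine epithelium, together with 1 floxed and 1 null Esr1 allele; Esr1 is the gene of oestrogen receptor alpha. Control (CT, Esr1f/-) females carried the same floxed and null alleles without Cre. Females were mated with wild-type studs (Esr1f/f or C57BL/6) and dissected at midday on D3.5 or on D0.5, the day of the plug. LE was luminal epithelium scraped off after digestion with the protease dispase, DU was a piece of the digested uterus, and U was an undigested piece of uterus. LE held 7 KO and 9 CT libraries at D0.5 and 6 KO and 4 CT libraries at D3.5. U held 4 KO and 6 CT libraries at D0.5 and 5 KO and 5 CT libraries at D3.5, and DU held 3 KO and 4 CT libraries at D0.5 and 3 KO and 3 CT libraries at D3.5. Each library of a group came from a different mouse.

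EGF family ligands are made as membrane proteins, are released by proteases of the ADAM family, and bind receptor tyrosine kinases that act in pairs. Areg, Tgfa and Egf proteins bind EGFR, Hbegf, Btc and Ereg proteins also bind ERBB4, while ERBB2 binds no known ligand and ERBB3 has a weak kinase and works with a partner. In the mouse uterus, Areg is known as a progesterone-responsive gene of the luminal epithelium before implantation, Hbegf as a gene induced beside the implanting blastocyst, and Errfi1 (Mig-6) as a progesterone-responsive inhibitor of EGFR.

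Promoter windows, running from 250 bases before to 50 bases after the annotated start, were listed in RefSeq (GRCm38.p6) for 7 of the 10 genes. The windows of Areg, Tgfa and Btc are printed because these 3 ligand genes differed between KO and CT luminal epithelium at D3.5. Capitals mark each match to TGACG, the core of the cyclic AMP response element, and to GGTCA, the repeated arm of the oestrogen response element, on either strand.
Areg, chr5:91139349-91139648, plus strand: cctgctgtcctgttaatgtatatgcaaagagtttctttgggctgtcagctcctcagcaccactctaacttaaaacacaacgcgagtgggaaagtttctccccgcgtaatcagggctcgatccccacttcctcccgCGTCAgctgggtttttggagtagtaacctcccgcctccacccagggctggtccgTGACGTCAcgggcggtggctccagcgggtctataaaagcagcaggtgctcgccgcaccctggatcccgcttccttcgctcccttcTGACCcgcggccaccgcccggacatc
Tgfa, chr6:86194972-86195271, plus strand: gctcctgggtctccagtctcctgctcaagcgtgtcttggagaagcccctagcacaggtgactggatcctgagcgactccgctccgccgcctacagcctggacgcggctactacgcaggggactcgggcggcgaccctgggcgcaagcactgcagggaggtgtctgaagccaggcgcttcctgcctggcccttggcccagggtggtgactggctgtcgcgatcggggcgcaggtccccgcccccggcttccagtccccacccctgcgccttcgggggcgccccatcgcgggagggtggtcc
Btc, chr5:91402945-91403244, minus strand: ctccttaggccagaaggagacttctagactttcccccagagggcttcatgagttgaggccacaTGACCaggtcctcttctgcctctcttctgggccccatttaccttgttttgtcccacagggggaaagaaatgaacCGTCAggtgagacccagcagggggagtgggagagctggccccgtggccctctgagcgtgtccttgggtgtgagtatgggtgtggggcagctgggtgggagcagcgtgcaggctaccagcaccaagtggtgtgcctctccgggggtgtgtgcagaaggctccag
The Areg window held the full palindrome TGACGTCA, which contains TGACG on both strands, beginning 61 bases before the start. TGACGTCA was found on either strand in 1.79% of 32851 promoter windows, and TGACG, found here for Areg, Btc, Erbb2 and Errfi1, in 20.8%. Among the windows of the other members, TGACGTCA was found in 1 of 2 windows of Errfi1. GGTCA was found in the windows of Areg, Btc, Egfr and Errfi1, against 40.5% of all windows, and the Tgfa window held none of the motifs searched. Neither the full oestrogen response element (0.07% of all windows) nor the progesterone and glucocorticoid response element (0.475%), both exact palindromes with 3 free bases, was found in any window of the members. Areg, Ereg and Btc lie on chromosome 5 in RefSeq, with gene bodies at chr5:91139599-91148432, chr5:91074617-91093649 and chr5:91357261-91402994.

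Levels of different genes are compared here in TPM, which is scaled by transcript length; changes of 1 gene are compared in CPM, counts scaled to library size by TMM within a tissue. In CT luminal epithelium at D0.5 the receptor transcripts Erbb3 and Erbb2 had medians of 57.7 and 51.6 TPM, the inhibitor Errfi1 50.1 TPM and Egfr 10.1 TPM. Among ligands, Hbegf stood highest there at a median of 22.7 TPM, followed by Tgfa at 9.02 and Btc at 4.04 TPM. The highest group median over the 12 groups was 0.34 TPM for Ereg and 0.392 TPM for Egf, so their ratios rest on few counts. All 10 genes passed the filter on low counts in every fit.

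The deleted gene was lower in KO libraries of LE. Esr1 averaged 47.3 CPM in KO and 192 CPM in CT luminal epithelium at D0.5 (7 and 9 libraries, two-sided exact permutation p = 0.000175), and 59.7 CPM in KO and 127 CPM in CT at D3.5 (6 and 4 libraries, exact permutation p = 0.00952). In U at D0.5 Esr1 averaged 121 CPM in KO and 194 CPM in CT (4 and 6 libraries, exact permutation p = 0.00952), with no overlap. In U at D3.5 the Esr1 ranges overlapped, 123 to 212 CPM in KO and 135 to 195 CPM in CT, and the library labelled KO of mouse 33 had the highest value. The LE libraries of KO mice 35, 36 and 37 were known from earlier results to stand apart from the other KO libraries at D3.5, and D3.5 results are therefore also given without these mice. Pgr, the progesterone receptor gene, averaged 138 ± 22.5 CPM in KO and 153 ± 58.4 CPM in CT luminal epithelium at D3.5 (SD, n = 6 and 4). Library totals lay between 13.5 and 80.3 M (mega) counts in LE, 11.3 and 108 M in U, and 14.1 and 46.2 M in DU. The 9 stromal fibroblast markers were lower in LE than in U (9 of 9 passed the test, median log2 difference -3.21), and all 6 general epithelial markers were higher (median 2.28). Stromal marker sums within LE ran over overlapping ranges in KO and CT at both days.

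Areg held a smaller part of the ligand transcripts in KO than in CT luminal epithelium at D3.5. To describe this, the 6 ligand TPM values were summed in each library. At D3.5 Areg made up 48.5% ± 10.6 of this sum in KO luminal epithelium (SD, n = 6) and 90.8% ± 3.48 in CT luminal epithelium (SD, n = 4). The shares did not overlap, with 30.8 to 58.6% in KO libraries and 86.0 to 94.1% in CT libraries. The sum itself was 51.7 ± 8.95 TPM in KO and 108 ± 41.5 TPM in CT, and its ranges overlapped, with a highest KO library at 63.2 TPM and a lowest CT library at 60.4 TPM. At D0.5 Areg averaged 0.621% of the sum in KO and 1.11% in CT, and Hbegf averaged 50.8% ± 23.4 in KO (n = 7) and 64.3% ± 11.6 in CT (n = 9). In KO the Hbegf mean was raised by mice 26 and 27 (81.6 and 86.0%): the medians of Hbegf and Tgfa were 43.2 and 42.6%, and Tgfa led in 4 of 7 KO libraries, while Hbegf led in 9 of 9 CT libraries. On the group means the leading ligand in U and DU was Hbegf at D0.5 and Areg at D3.5. Areg took 51.2% in KO and 64.5% in CT for U at D3.5, and 38.7% in KO and 61.5% in CT for DU at D3.5, with overlapping ranges in both tissues. These shares are descriptions and carry no test.

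**Figure D1:**
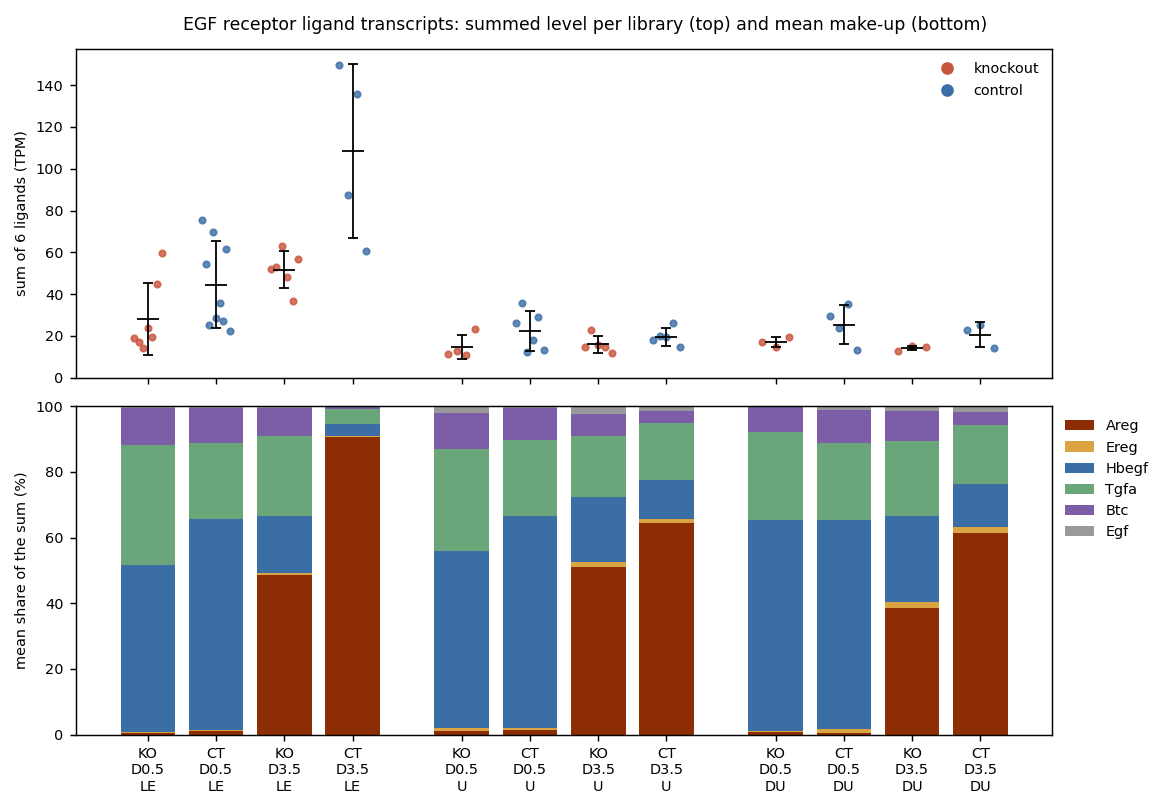
Upper panel: summed TPM of 6 EGF receptor ligands per library (points, knockout red and control blue) with mean and SD (black) for each tissue, day and genotype. Lower panel: mean share of each ligand in that sum in percent; at D3.5 Areg fills 48.5% of the bar in knockout LE and 90.8% in control LE.

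Areg encodes amphiregulin. At D3.5 its CPM was 19.1, 14.9, 26.3, 12.5, 7.32 and 21.4 in the 6 KO luminal epithelium libraries, against 158, 62.1, 79.4 and 53.5 in the 4 CT libraries. Every KO library lay below every CT library, although KO libraries were all far above the D0.5 level. The fold change was -2.38 ± 0.58 (log2, SE), which is 5.22 times lower in KO, with an edgeR quasi-likelihood adjusted p of 0.00637. In this comparison 13.4% of 15601 genes were called, and 10% had ranges that did not overlap. The call was lost without CT mouse 11 (log2 -1.94, adjusted p = 0.0549 with edgeR) and without KO mice 35, 36 and 37 (log2 -2.11, adjusted p = 0.0918). Over all alternative settings the adjusted p lay between 7.18e-06 and 0.0918, and Areg was lower in KO in each of them.

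At D0.5 Areg was at most 0.349 CPM in KO and at most 1.34 CPM in CT luminal epithelium, with 2 KO libraries and 1 CT library at 0. Between D3.5 and D0.5 it was higher at D3.5 in all 6 comparisons, by 6.77 ± 0.69 in KO LE and 7.98 ± 0.63 in CT LE (log2, SE; edgeR adjusted p = 1.65e-08 and 1.24e-10). The same contrast gave 5.85 ± 0.67 in KO U and 5.31 ± 0.53 in CT U, and 5.07 ± 0.94 in KO DU and 5.92 ± 0.80 in CT DU. The interaction of genotype and day for Areg in LE was -1.21 ± 0.96 with an edgeR adjusted p of 0.441. On log2(TPM + 1) of the authors' TPM it was -1.67 with a limma adjusted p of 0.00161. In 32 of 33 alternative settings, log2(TPM + 0.1) among them, the Areg interaction was not called, so its call depended on the value added to TPM. Genes called higher at D3.5 made up 21.4% in KO LE, 21.1% in CT LE, 10.9% in KO U, 16.1% in CT U, 12.9% in KO DU and 15.9% in CT DU. In U at D3.5 Areg was 3.64 to 9.61 CPM in KO and 6.93 to 24.8 CPM in CT, a difference of -0.76 ± 0.45 that did not pass (edgeR adjusted p = 1), and in DU it was 2.16 to 5.30 CPM in KO and 4.59 to 12.8 CPM in CT (-1.17 ± 0.68, adjusted p = 0.74). Ordered by median TPM over the 12 groups, Areg was highest in CT LE at D3.5 (98.0), then in KO LE at D3.5 (26.7), and neighbouring groups overlapped at 9 of 11 steps; the exceptions were the step between these groups and the step between the D3.5 and the D0.5 groups.

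Btc encodes betacellulin and moved the other way at D3.5. Its CPM was 9.29, 7.97, 10.6, 6.33, 6.33 and 5.45 in KO luminal epithelium, against 2.66, 1.28, 3.64 and 0.911 in CT. The lowest KO library was above the highest CT library. Btc was 3.57-fold higher in KO (log2 1.84 ± 0.43, edgeR adjusted p = 0.00492), and without mice 35, 36 and 37 the log2 value was 2.14 (adjusted p = 0.00858). At D0.5 Btc was lower in KO in CPM, with 2.23, 5.82 and 11.2 CPM as lowest, median and highest in KO and 5.01, 9.97 and 18.0 CPM in CT. These D0.5 ranges overlapped, and the difference of -0.89 ± 0.32 only just passed (edgeR adjusted p = 0.0429, where 23.5% of genes were called); it kept its call in 10 of 24 alternative settings, and lost it without any 1 of CT mice 3 to 8 or KO mice 23 to 27 (highest adjusted p = 0.0958). At D0.5 the luminal epithelium marker sums overlapped between KO and CT, and no scale was made with them. The general epithelial markers were lower in KO at D0.5, as given with the receptors. Per 1000 CPM of their sum, Btc was 1.56 ± 1.03 CPM in KO and 1.31 ± 0.315 CPM in CT at D0.5, ranges that overlapped, and 1.95 ± 0.621 CPM in KO and 0.556 ± 0.359 CPM in CT at D3.5, with no overlap, so the D0.5 mean was not lower in KO on that scale. The difference between the knockout effects of the 2 days was 2.73 ± 0.54 (edgeR adjusted p = 0.000811, where 16.5% of genes were called), and it passed in 33 of 33 alternative settings, with log2 values between 2.14 and 3.17.

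Seen by day, Btc was lower at D3.5 than at D0.5 in CT LE by 2.26 ± 0.43, in CT U by 1.81 ± 0.35 and in CT DU by 1.63 ± 0.36 on the log2 scale (edgeR adjusted p = 0.000102, 0.000419 and 0.0036). In KO the day difference was 0.48 ± 0.35 for LE, -0.49 ± 0.37 for U and -0.19 ± 0.37 for DU, and none passed. On the authors' TPM the KO LE difference was called (log2 0.77 on log2(TPM + 1), limma adjusted p = 0.00937, and 1.06 on log2(TPM + 0.1), 0.0142), where the median of all genes was shifted by 0.42 and 0.47. The general epithelial marker sum was also lower at D3.5 in U and DU. Per 1000 CPM of it, Btc in CT U was 2.79 ± 1.92 CPM at D3.5 and 1.52 ± 0.387 CPM at D0.5. In CT DU it was 3.61 ± 1.64 CPM at D3.5 and 2.0 ± 0.136 CPM at D0.5. The Btc mean was thus not lower at D3.5 in whole tissue of CT on that scale, with overlapping ranges and no test. Btc in U at D3.5 had 2.05 to 2.55 CPM in KO and 0.549 to 2.00 CPM in CT; the ranges did not overlap, as was so for 1.33% of genes, but the test did not pass (edgeR adjusted p = 1). The interaction was 1.32 ± 0.51 in U and 1.44 ± 0.52 in DU, with edgeR adjusted p values of 0.286 and 0.192; 1.39% and 1.86% of genes were called in these interactions, and no member.

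Tgfa encodes transforming growth factor alpha. At D3.5 it had 32.9, 39.3, 39.3, 29.0, 36.3 and 28.4 CPM in KO luminal epithelium, against 17.3, 16.7, 25.3 and 10.4 CPM in CT. All KO libraries were above all CT libraries, with a 1.96-fold higher level in KO (log2 0.97 ± 0.24, edgeR adjusted p = 0.00631), and without mice 35, 36 and 37 the log2 value was 1.12 (adjusted p = 0.014). At D0.5 its range of 25.8 to 43.0 CPM in KO lay within that of CT, 26.3 to 67.6 CPM, apart from the lowest KO library (-0.31 ± 0.18, adjusted p = 0.235). The interaction was 1.28 ± 0.30 (edgeR adjusted p = 0.00344) and passed in 33 of 33 alternative settings, with log2 values between 1.01 and 1.67. Per 1000 CPM of the general epithelial markers, Tgfa was 8.88 ± 1.82 CPM in KO and 5.16 ± 1.15 CPM in CT at D0.5. At D3.5 it was 8.73 ± 2.43 CPM in KO and 4.58 ± 1.97 CPM in CT. On that scale the Tgfa mean was higher in KO at both days, the ranges overlapped, and the interaction was not tested. At D0.5 the general epithelial sum was itself lower in KO, at 2610 to 4610 CPM against 5910 to 11000 CPM in CT. The luminal epithelium marker sums overlapped, at 423 to 858 CPM in KO and 585 to 1530 CPM in CT, and no scale was made with them. The higher Tgfa mean in KO at D0.5 thus depended on the markers chosen for the scale. Between the days Tgfa fell by 1.19 ± 0.23 in CT LE (log2, edgeR adjusted p = 0.000111) and differed by 0.09 ± 0.20 in KO LE (adjusted p = 0.754). On log2(TPM + 1), with the median of all genes at 0.42, Tgfa was called higher at D3.5 in KO LE (0.55, limma adjusted p = 0.0172). Tgfa was also lower at D3.5 in whole tissue, by 0.73 ± 0.26 in KO U and 0.78 ± 0.24 in CT U, and by 0.72 ± 0.23 in KO DU and 0.93 ± 0.22 in CT DU (edgeR adjusted p = 0.0443, 0.0143, 0.0319 and 0.005); both KO calls were lost without mice 35, 36 and 37 (0.169 in U and 0.0824 in DU). The KO call in U was also lost with no filter on low counts (0.0562), on log2(TPM + 1) (0.249), and without any 1 of the D0.5 mice 21, 26 and 27 or the D3.5 mice 33, 34, 35 and 37 (adjusted p between 0.0604 and 0.141). The KO call in DU was also lost on log2(TPM + 1) (0.171) and without any 1 of the D0.5 mice 25 and 26 or the D3.5 mice 34 and 35 (adjusted p between 0.0533 and 0.114), and the CT call in U was lost on log2(TPM + 1) (0.146). Per 1000 CPM of the general epithelial markers, Tgfa in U was 16.5 ± 5.25 CPM at D3.5 and 12.3 ± 3.55 CPM at D0.5 in KO. In CT U it was 21.0 ± 12.9 CPM at D3.5 and 5.94 ± 1.64 CPM at D0.5. In DU it was 21.3 ± 2.98 and 11.8 ± 1.69 CPM in KO, and 21.9 ± 2.94 and 7.86 ± 1.34 CPM in CT. The Tgfa mean was thus higher at D3.5 in whole tissue on that scale, which was not tested. In U its knockout effect at D3.5 was -0.10 ± 0.25 and in DU 0.00 ± 0.23; the difference between these and the LE effect was not tested.

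With limma voom and sample weights, Btc and Tgfa at D3.5 in LE missed the threshold (adjusted p = 0.0614 and 0.0738) while Areg passed (7.18e-06). With the mean stromal marker level as a covariate, Areg, Tgfa and Btc passed with edgeR adjusted p values of 0.00541, 0.00959 and 0.00602. Gland markers moved with these results: their summed level was 54.8 to 166 CPM in KO and 3.01 to 7.89 CPM in CT luminal epithelium at D3.5, and 3 of 3 tested members were called higher. Prss28 and Prss29 were at 0 in the KO libraries, and Prss28 and Wif1 in the CT libraries. Neutrophil markers ran from 3.26 to 17.5 CPM in KO and 2.12 to 8.28 CPM in CT at D3.5, with 0 of 6 called. Erythroid markers summed to 21.6 to 307 CPM in KO and 328 to 1750 CPM in CT (0 of 3 called), and lymphoid markers to 3.56 to 6.90 CPM in KO and 4.05 to 17.8 CPM in CT (1 of 4 called lower). The part of gland, blood and lymphoid cells in the ligand differences was not tested.

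**Figure D2:**
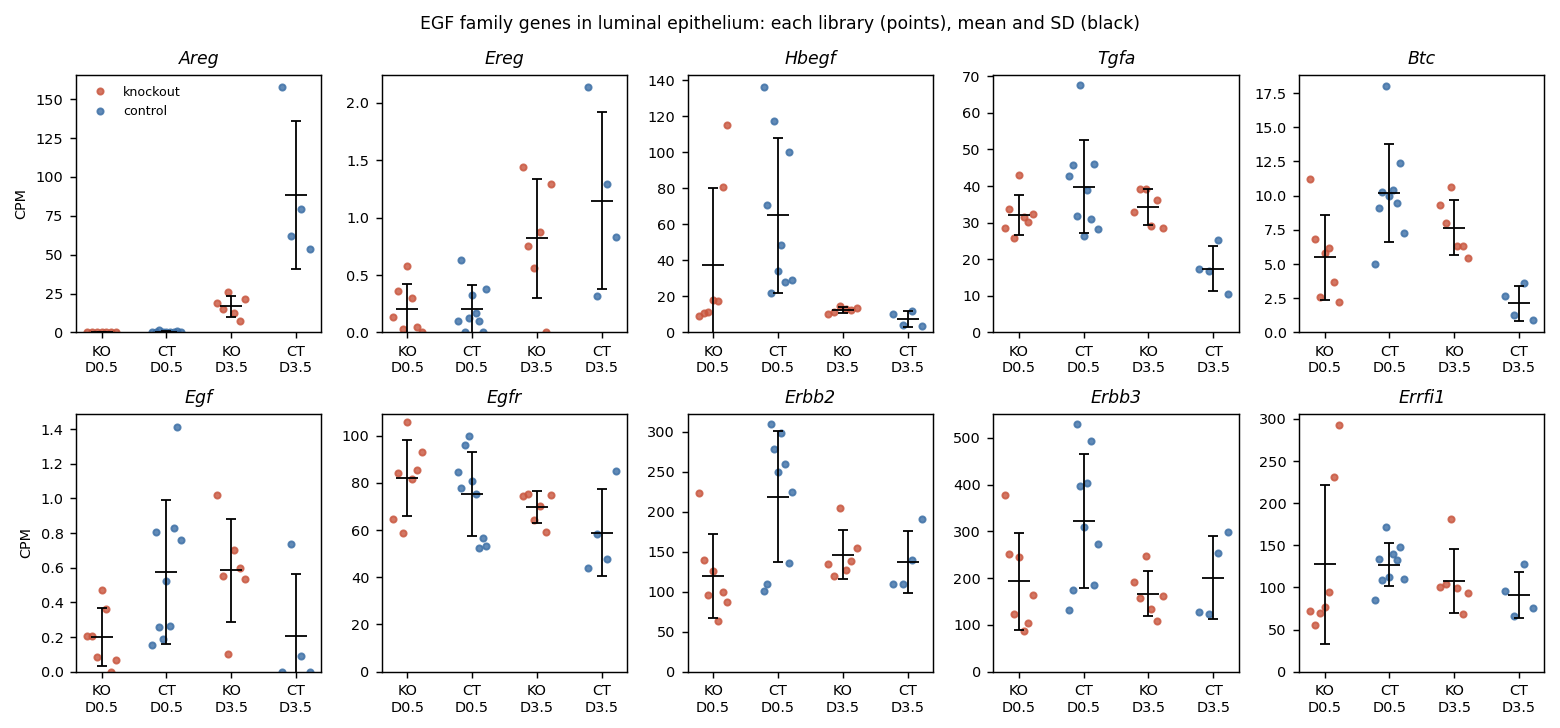
CPM of the 10 genes in luminal epithelium, 1 panel per gene, for knockout (KO) and control (CT) libraries at D0.5 and D3.5; points are libraries, bars mean and SD. At D3.5 the KO libraries of Areg lie below all CT libraries (7.32 to 26.3 against 53.5 to 158), and those of Tgfa and Btc lie above them.

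Hbegf encodes heparin-binding EGF-like growth factor, and its KO libraries split at D0.5. It had 9.12, 11.0, 11.3, 17.8 and 17.2 CPM in KO mice 21 to 25, and 80.5 and 115 CPM in KO mice 26 and 27, against a lowest, median and highest value of 22.0, 48.3 and 136 CPM in 9 CT mice. Thus 5 of 7 KO libraries lay below every CT library, and 2 lay above the CT median. The knockout effect was -0.80 ± 0.50 (log2, edgeR adjusted p = 0.28), and it was -1.41 with an adjusted p of 0.0372 without KO mouse 27 and -1.41 with 0.00679 by limma voom with sample weights. In the undigested uterus of the same mice, Hbegf was 12.1 CPM in mouse 26 and 30.1 CPM in mouse 27, beside 5.58 and 20.5 CPM in KO mice 21 and 25.

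Errfi1, Ier3, Junb and Dusp6 were higher in the same 2 KO libraries than in the other 5 KO libraries. Errfi1 had 231 and 293 CPM in KO mice 26 and 27 and 55.6 to 94.4 CPM in the other 5 KO mice, against 84.7 to 172 CPM in CT. Ier3 had 878 and 626 CPM in mice 26 and 27 and 179 to 287 CPM in the other KO mice, and Junb 852 and 844 CPM beside 467 to 583 CPM. Dusp6 had 352 and 540 CPM beside 184 to 272 CPM. In CT Ier3 ran from 569 to 1720 CPM, Junb from 418 to 712 CPM and Dusp6 from 212 to 478 CPM. Both KO libraries thus lay above every CT library for Errfi1 and Junb. For Ier3 both lay within the CT range, and for Dusp6 that of mouse 26 did. Etv5, with 16.0 and 10.1 CPM, lay within the 8.32 to 28.4 CPM of the other KO mice. Egr1 and Fos did not set both libraries apart, with 179 and 262 CPM and 297 and 457 CPM in mice 26 and 27, beside highest values of 256 and 336 CPM in the other KO mice. The early response genes Ier3, Junb, Egr1 and Fos, and also Dusp6 and Etv5, were set beside Hbegf after the values were seen, and no cause was tested.

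Hbegf was lower at D3.5 than at D0.5 in all 6 comparisons. It fell by 1.57 ± 0.57 in KO LE and by 3.12 ± 0.71 in CT LE, by 1.62 ± 0.42 in KO U and 2.91 ± 0.41 in CT U, and by 1.84 ± 0.37 in KO DU and 2.91 ± 0.37 in CT DU (log2, SE). The edgeR adjusted p was 0.0288 in KO LE and at most 0.00627 in the other 5. The KO LE call was lost without KO mouse 26, 27, 31 or 32, where the adjusted p lay between 0.0505 and 0.148 and the log2 value without mouse 27 was -0.95. It was also lost without mice 35, 36 and 37 (log2 -1.64, 0.115), with voom (-0.49, 0.465) and on log2(TPM + 1) (-0.39, 0.48). The KO U call was lost on log2(TPM + 1) (-1.02, limma adjusted p = 0.051). In LE the D3.5 values were 10.3 to 14.9 CPM in KO and 3.34 to 12.1 CPM in CT (0.75 ± 0.66, adjusted p = 0.527). Of all genes 20.2% were called lower at D3.5 in KO LE, 22.8% in CT LE, 14.5% in KO U, 17.9% in CT U, 17.3% in KO DU and 18.5% in CT DU; of the 10 members 1, 3, 3, 5, 3 and 5 were. Per 1000 CPM of the general epithelial markers, Hbegf in U was 8.57 ± 1.6 CPM at D3.5 and 11.9 ± 8.11 CPM at D0.5 in KO. In CT U it was 7.17 ± 1.64 CPM at D3.5 and 9.12 ± 4.3 CPM at D0.5. In DU it was 12.0 ± 4.32 and 14.5 ± 3.48 CPM in KO, and 8.34 ± 2.48 and 11.6 ± 5.92 CPM in CT. The ranges of the days overlapped in each of these, and no test was made on that scale.

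Ereg and Egf, the genes of epiregulin and EGF itself, were near the limit of detection. Ereg reached at most 1.44 CPM in KO LE and 2.14 CPM in CT LE at D3.5, where it was called higher than at D0.5 in CT (log2 2.51 ± 0.84, edgeR adjusted p = 0.0167) but not without CT mouse 11 (0.086). In KO LE the day difference was 2.00 ± 0.83 with an adjusted p of 0.0567. Egf was at most 1.64 CPM in any library, and none of its genotype, day or interaction comparisons passed; the interaction in LE was 2.95 ± 1.20 (edgeR adjusted p = 0.0952). Without CT mouse 14, which held most of the Egf counts of its group, this interaction was 5.44 (adjusted p = 0.00622), the knockout effect at D3.5 3.93 (0.026) and the day effect in CT -3.90 (0.00798).

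Of the 3 receptor genes, 1 (Erbb2) was called between genotypes in LE at D0.5, where 23.5% of all genes were called. None was called at D3.5, where 13.4% of all genes were. Erbb2, the co-receptor gene, had a lowest, median and highest value of 63.1, 99.3 and 224 CPM in 7 KO luminal epithelium libraries, against 101, 250 and 310 CPM in 9 CT libraries. The ranges overlapped, with the KO library of mouse 21 at 224 CPM and the next KO library at 139 CPM. Erbb2 fell by 0.87 ± 0.25 (log2, edgeR adjusted p = 0.012) in KO, and passed in 24 of 24 alternative settings. Erbb3, its partner, had 87.9, 163 and 377 CPM in KO and 131, 309 and 529 CPM in CT, a difference of -0.74 ± 0.32 that did not pass (edgeR adjusted p = 0.0969) and did without KO mouse 21 (log2 -0.99, adjusted p = 0.0235) or without CT mouse 1 (-0.84, 0.0475). At D3.5 Erbb2 averaged 146 ± 30.9 CPM in KO and 137 ± 38.5 CPM in CT, and Erbb3 166 ± 48.4 CPM in KO and 201 ± 89.2 CPM in CT (SD, n = 6 and 4). The 95% interval of the Erbb2 difference at D3.5 ran from -0.53 to 0.71 on the log2 scale.

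General epithelial markers moved with the D0.5 result. Their summed level was 2610 to 4610 CPM in KO and 5910 to 11000 CPM in CT luminal epithelium at D0.5, with 4 of 6 called lower and none at 0. The luminal epithelium markers summed to 423 to 858 CPM in KO and 585 to 1530 CPM in CT, overlapping ranges, and 0 of 4 were called (median log2 -0.47). Per 1000 CPM of the general epithelial sum, Erbb2 was 34.5 ± 19.5 CPM in KO and 29.8 ± 13.6 CPM in CT. Erbb3 was 55.6 ± 35.6 CPM in KO and 44.4 ± 25.4 CPM in CT (SD, n = 7 and 9). Neither receptor had a lower mean in KO on that scale, and the ranges overlapped. No such scale was made with the luminal epithelium markers. Neutrophil markers also moved, at 934 to 3470 CPM in KO and 3.52 to 399 CPM in CT, with 6 of 6 called higher. Gland markers summed to 30.2 to 116 CPM in KO and 0.87 to 24.0 CPM in CT. Macrophage markers summed to 116 to 143 CPM in KO and 193 to 429 CPM in CT, with 4 of 6 called higher and 1 lower. The part of neutrophils, macrophages and gland cells in the receptor result was not tested.

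In the digested uterus at D0.5 the lower receptor level was seen for Erbb3. It had 54.3, 90.9 and 57.5 CPM in KO, against 96.6, 197, 120 and 148 CPM in CT, with no overlap (-1.05 ± 0.23, edgeR adjusted p = 0.0149; 8.1% of genes were called and 17.7% did not overlap). The call was lost without KO mouse 25 (adjusted p = 0.0689), without KO mouse 27 (0.0624) and in a fit of these 2 groups alone (0.0808). Per 1000 CPM of the general epithelial markers, Erbb3 was 46.1 ± 15.2 CPM in KO and 57.6 ± 21.8 CPM in CT (SD, n = 3 and 4), ranges that overlapped. Erbb2 in DU had 28.2, 72.2 and 43.3 CPM in KO and 68.8, 116, 73.4 and 95.7 CPM in CT (-0.88 ± 0.27, adjusted p = 0.0643), and passed by DESeq2 (0.0159), without CT mouse 1 (0.0481) and without KO mouse 26 (0.00837). Ereg, Btc and Egf also had ranges that did not overlap in DU at D0.5, and Hbegf in DU at D3.5, where 18.9% of genes did not overlap; none of these 4 passed the test. In U at D0.5 no member was called, where 4.86% of genes were; Erbb3 was -0.53 ± 0.36, and -1.29 with an edgeR adjusted p of 0.0124 without KO mouse 21. In U and DU at D3.5 no member was called either, beside 0.00616% and 0.55% of genes. In U at D3.5 edgeR called 1 gene, with 678 at an unadjusted p under 0.05, DESeq2 called 78 and limma voom 1434. In these pieces of whole tissue, fewer epithelial cells and less RNA per cell cannot be told apart.

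**Figure D3:**
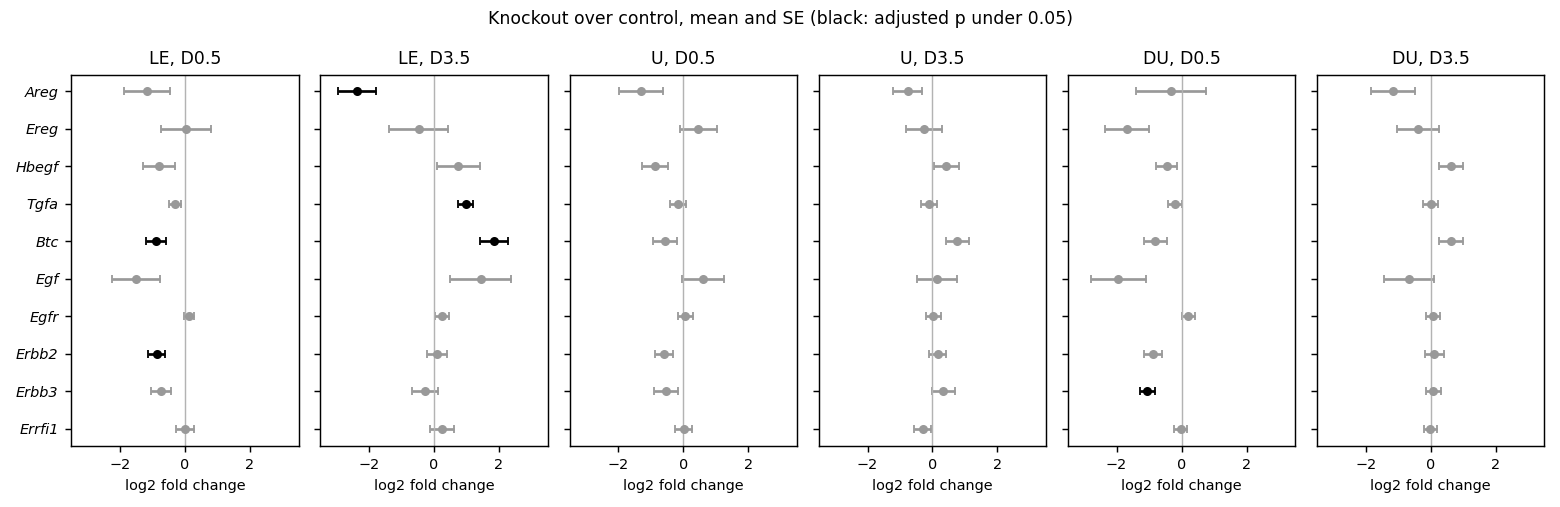
Log2 fold change of knockout over control with SE for the 10 genes in each tissue and day; black points have an edgeR adjusted p under 0.05 over all tested genes. Black points are Btc and Erbb2 in LE at D0.5, Areg, Tgfa and Btc in LE at D3.5, and Erbb3 in DU at D0.5.

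Erbb3 in both genotypes and Erbb2 in CT were also lower at D3.5 than at D0.5 in whole tissue. Erbb3 fell by 1.70 ± 0.38 in KO U and 2.56 ± 0.36 in CT U, and by 1.20 ± 0.24 in KO DU and 2.34 ± 0.24 in CT DU, with edgeR adjusted p values of at most 0.00247. Erbb2 fell by 1.50 ± 0.27 in CT U and 1.32 ± 0.28 in CT DU (adjusted p = 0.000172 and 0.00242), and its KO differences of -0.74 ± 0.28 in U and -0.33 ± 0.29 in DU did not pass. The KO U difference of Erbb2 passed with DESeq2 (-0.75, adjusted p = 0.0362) and with edgeR without KO mouse 25 (-0.86, 0.0474) or 27 (-0.96, 0.0143). In LE the day differences of Erbb3 were -0.21 ± 0.35 in KO and -0.68 ± 0.38 in CT, and neither passed. Those of Erbb2 in LE were 0.29 ± 0.27 in KO and -0.67 ± 0.31 in CT (edgeR adjusted p = 0.416 and 0.0761). The CT difference passed with voom (0.0459) and without CT mouse 1, 2 or 16 (0.0339, 0.0375 and 0.0431), and the KO one on log2(TPM + 1) (0.81, 0.0161). The general epithelial marker sum in U was 412 to 855 CPM at D3.5 and 1200 to 1690 CPM at D0.5 in KO, and 430 to 833 CPM at D3.5 and 2080 to 6900 CPM at D0.5 in CT. The luminal epithelium markers in U summed to 131 to 331 CPM at D3.5 and 213 to 312 CPM at D0.5 in KO (2 of 4 called higher and 1 lower, median log2 0.92), and to 62.8 to 319 CPM at D3.5 and 272 to 506 CPM at D0.5 in CT (1 higher and 1 lower, median -0.07). Per 1000 CPM of the general epithelial sum, Erbb3 in KO U was 47.6 ± 21.4 CPM at D3.5 and 72.0 ± 70.7 CPM at D0.5 (SD, n = 5 and 4), with medians of 43.9 and 42.1 CPM. In CT U it was 41.7 ± 14.2 CPM at D3.5 and 45.8 ± 25.1 CPM at D0.5 (SD, n = 5 and 6), while Erbb2 was 56.2 ± 10.0 CPM at D3.5 and 44.3 ± 25.2 CPM at D0.5 in KO U, and in CT U 56.2 ± 7.94 CPM at D3.5 and 31.8 ± 14.0 CPM at D0.5.

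**Figure D4:**
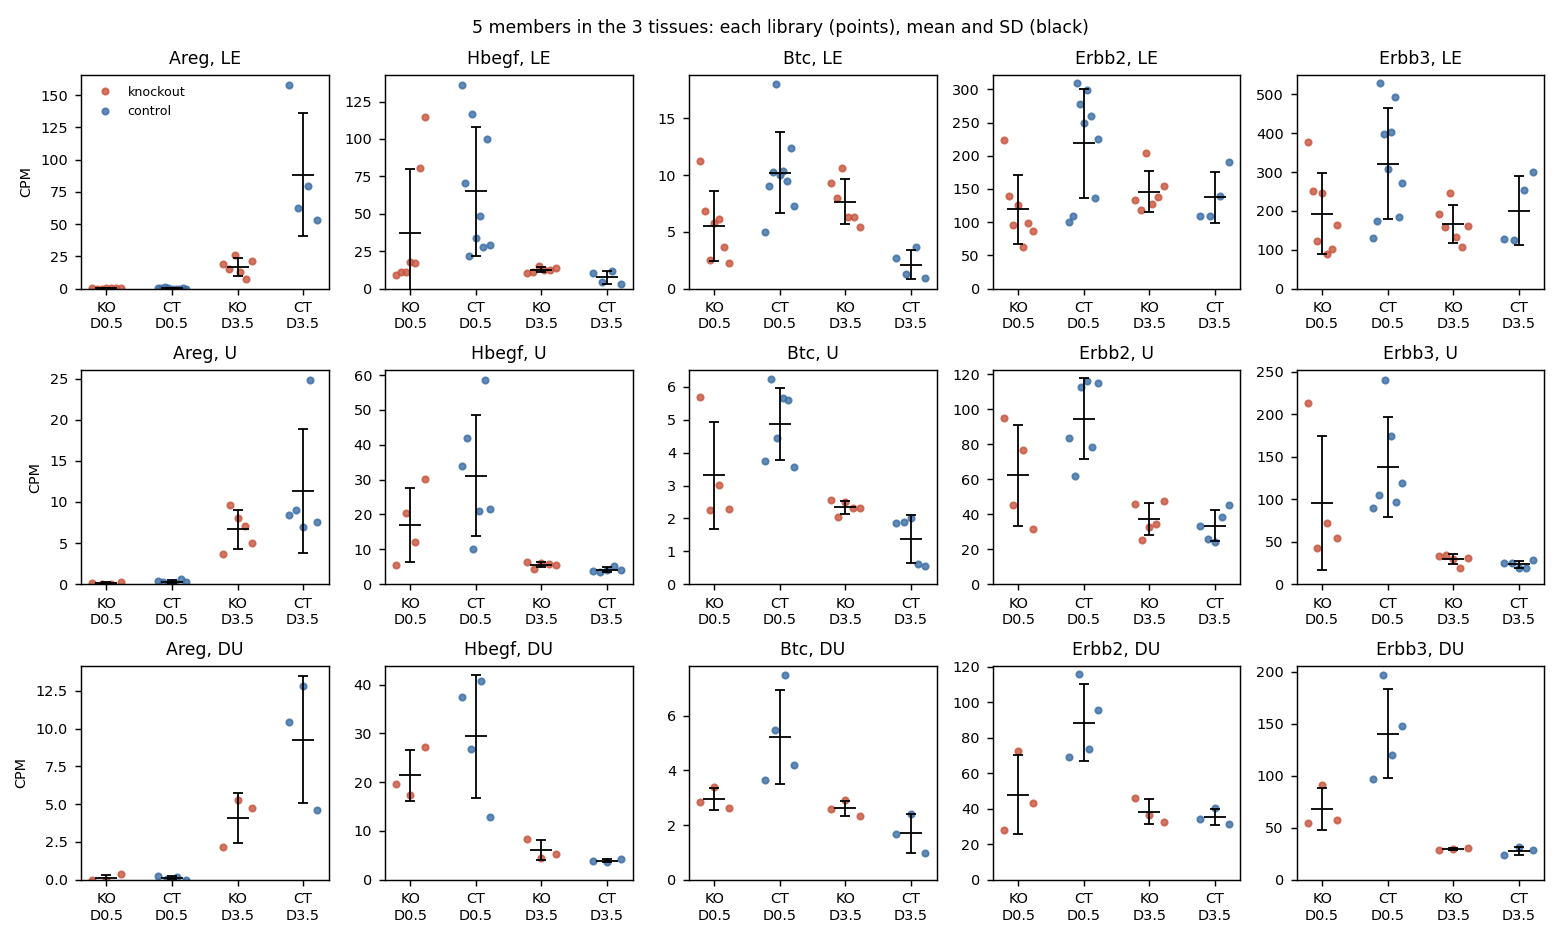
CPM of Areg, Hbegf, Btc, Erbb2 and Erbb3 (columns) in LE, U and DU (rows) for knockout (KO) and control (CT) libraries at D0.5 and D3.5; points are libraries, bars mean and SD. Erbb3 in U is at most 33.8 CPM in KO and 28.0 CPM in CT at D3.5, and at least 42.6 CPM in KO and 90.2 CPM in CT at D0.5.

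Egfr and Errfi1 were not called between genotypes or days by edgeR with all libraries. Egfr, the gene of the receptor these ligands share, averaged 82.0 ± 16.3 CPM in KO and 75.2 ± 17.8 CPM in CT luminal epithelium at D0.5, and ran from 59.1 to 75.5 CPM in KO and 44.1 to 85.2 CPM in CT at D3.5. None of its 6 genotype differences, 6 day differences or 3 interactions passed the edgeR test; in LE at D3.5 it was called on the authors' TPM (log2 0.66, limma adjusted p = 0.00853), a scale on which the median of all genes was shifted by 0.38. The day difference of Egfr in CT LE passed with edgeR without CT mouse 16 (-0.58, adjusted p = 0.0192) and on log2(TPM + 1) (-0.50, limma adjusted p = 0.0179), and its LE interaction passed on log2(TPM + 1) (0.64, 0.0392), with the median of all genes at 0.36. Errfi1 passed none of these 15 comparisons either. Its levels in LE at D3.5 were 68.7 to 181 CPM in KO and 66.6 to 128 CPM in CT.

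Compared between tissues over the 4 genotype and day groups, 6 members were higher in LE than in U and 1 was lower, where 31% and 34.7% of genes were called in these directions. Erbb3 and Erbb2 were higher in LE by 2.28 ± 0.20 and 1.86 ± 0.16, Areg by 1.57 ± 0.34, and Tgfa, Hbegf and Btc by 1.39 ± 0.12, 1.36 ± 0.27 and 1.36 ± 0.19 (log2, SE; edgeR adjusted p at most 9.26e-05). Egfr was lower in LE by 0.30 ± 0.11 (log2 -0.30, adjusted p = 0.014), a small difference beside the median of -3.21 for the stromal markers, and it did not pass without mice 35, 36 and 37 (0.104) or in the mice with both tissues fitted without a block (0.136). Errfi1 differed by -0.01 ± 0.16. The same 6 members were higher and Egfr was lower in LE than in DU, where 33.9% and 32.8% of genes were called higher and lower. On log2(TPM + 1), where the median of all genes was -0.36, the Hbegf difference between LE and DU was 0.57 and missed the threshold (limma adjusted p = 0.0503), while Errfi1 was called lower in LE (-0.73, 0.000102). Tissue and RNA isolation batch cannot be told apart, since RNA was isolated as 1 batch for each tissue.

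Between DU and U no member passed and no gene was called by edgeR, with 4051 of 16782 genes at an unadjusted p under 0.05, while DESeq2 called 157 genes and limma voom 3493. In a fit blocked by mouse over the 13 animals that gave both tissues, edgeR called 7070 genes, among them Egfr (log2 0.33, adjusted p = 0.0114) and Errfi1 (0.16, adjusted p = 0.0296), both higher in DU. Without the block the same animals gave 3358 calls and no member. The ligand genes Hbegf, Tgfa and Btc differed between DU and U by 0.03 ± 0.21, -0.03 ± 0.13 and 0.06 ± 0.18 (log2, SE).

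**Figure D5:**
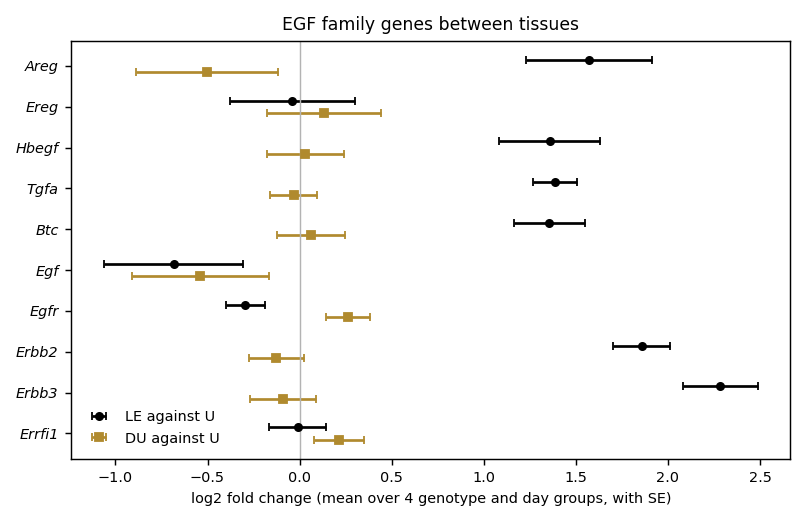
Log2 fold change with SE of the 10 genes in LE against U (black circles) and in DU against U (gold squares), as the average of 4 groups of genotype and day. Erbb3 and Erbb2 lie farthest to the right in LE, at 2.28 and 1.86.

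Around the members, 50 further genes of the pathway were listed by function, of which 48 were tested in LE. At D3.5 in LE 4 (Erbb4, Spred2, Phlda1 and Elk3) were higher and 5 (Dusp4, Dusp6, Junb, Ier3 and Etv5) lower in KO, 9 of 48 where 13.4% of all genes were called, with a list median of -0.01 against -0.01 for all genes (log2). Erbb4 was near the limit of detection there, at 0 CPM in each CT library and at most 1.62 CPM in KO. Ier3, an early response gene, had 13.8 ± 1.14 CPM in KO and 72.0 ± 34.8 CPM in CT (log2 -2.38 ± 0.40, edgeR adjusted p = 0.00017), and Dusp6, a phosphatase that dampens ERK, 39.0 ± 5.55 CPM in KO and 105 ± 45.9 CPM in CT (-1.42 ± 0.27, 0.000675). Phlda1 went the other way, with 38.1 ± 26.7 CPM in KO and 3.59 ± 1.29 CPM in CT (3.40 ± 0.67, 0.00098). The 3 genes had no overlap between KO and CT libraries.

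At D0.5 in LE 6 of the 48 (Nrg4, Erbb4, Lrig2, Spry2, Spred2 and Etv5) were higher and 5 (Adam10, Gab1, Ier3 and Elk3 among them) lower in KO, 11 of 48 where 23.5% of all genes were called, with a median of 0.03 against -0.01 for all genes. Genes named here without values were named after their values were seen. Elk3, a transcription factor downstream of ERK, had 36.8 ± 8.85 CPM in KO and 156 ± 28.4 CPM in CT (log2 -2.08 ± 0.15, edgeR adjusted p = 3.61e-10), Ier3 374 ± 272 CPM in KO and 1150 ± 362 CPM in CT (adjusted p = 0.000464), and Lrig2, of a family of receptor inhibitors, 38.4 ± 8.56 CPM in KO and 23.8 ± 4.43 CPM in CT (0.00132). Of the 15 feedback inhibitors 3 were called higher in KO and 0 lower. Erbb4, the fourth receptor gene of the family, outside the naming rule and chosen after its values were seen, had 17.5 ± 17.1 CPM in KO and 3.25 ± 3.85 CPM in CT at D0.5 (adjusted p = 0.0218). Its ranges overlapped, at 2.77 to 54.5 CPM in KO and 0.0577 to 11.5 CPM in CT. The KO library of mouse 23 had 54.5 CPM and the next KO library 17.7 CPM. Interactions of genotype and day in LE were called for 10 of the 48, where 16.5% of all genes were, with Elk3 (3.02 ± 0.24), Etv5 (-3.48 ± 0.62) and Phlda1 (3.99 ± 0.79) at the smallest edgeR p values.

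By day, 7 of the 48 were higher and 17 lower at D3.5 in KO LE, and 6 higher and 14 lower in CT LE. Of all genes 21.4% were called higher and 20.2% lower in KO LE, and 21.1% and 22.8% in CT LE. Ier3 fell by 4.75 ± 0.41 in KO LE and 4.00 ± 0.46 in CT LE (log2, edgeR adjusted p = 1.08e-09 and 9.01e-08). Etv5, a transcription factor gene, had 236 ± 82.5 CPM at D3.5 and 5.22 ± 4.15 CPM at D0.5 in CT LE. Elk3 went the other way there, with 22.7 ± 4.68 CPM at D3.5 and 156 ± 28.4 CPM at D0.5. Dusp6 had 39.0 ± 5.55 CPM at D3.5 and 291 ± 123 CPM at D0.5 in KO LE. In CT LE Dusp6 ran from 58.9 to 164 CPM at D3.5 and from 212 to 478 CPM at D0.5. In KO U 1 was higher and 20 lower at D3.5, in CT U 3 higher and 19 lower, in KO DU 1 and 23, and in CT DU 3 and 17. The shares of all genes called higher and lower were 10.9% and 14.5% in KO U, 16.1% and 17.9% in CT U, 12.9% and 17.3% in KO DU, and 15.9% and 18.5% in CT DU. Lrig1, another receptor inhibitor, was 40.1 ± 10.2 CPM at D3.5 and 137 ± 7.35 CPM at D0.5 in KO U, and 34.2 ± 2.34 CPM at D3.5 and 122 ± 22.8 CPM at D0.5 in CT U. Junb had 39.3 ± 6.23 CPM at D3.5 and 478 ± 236 CPM at D0.5 in KO U. Dusp6 had 43.6 ± 7.87 CPM at D3.5 and 170 ± 35.5 CPM at D0.5 in CT U. Knockout effects on the list in U were 1 higher (Egr1) and 1 lower (Elk3) at D0.5 (4.86% of all genes were called) and none at D3.5, and in DU, where 8.1% were called at D0.5, 3 higher (Spry4, Spred1 and Fosl1) and 1 lower (Adam10, a sheddase gene) at D0.5 and none at D3.5.

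Genes with the pattern most like each member over the 12 group means were sought among 11915 genes by Pearson r of log2 values, as a description over groups that share mice and scaling. Areg was most like Rp1, Drd4 and Rab40b (r = 0.989, 0.988 and 0.983). Erbb2 was most like Dlx6, Esrp2 and Tprn (0.994, 0.99 and 0.99), and Erbb3 like Rhpn2, Dlx5 and Tnk1 (0.991, 0.991 and 0.988). Ereg and Egf, with low levels, gave a highest r of 0.924 (Taok2) and 0.894 (Mcts1). For Hbegf the nearest were Cdkn2b, Gpat3 and Gdf15 (0.985, 0.982 and 0.981), for Tgfa Kdm1a, Ap2b1 and Acsl5 (0.986, 0.982 and 0.979), and for Btc A2ml1, Ces1d and Rxra (0.968, 0.964 and 0.964). Egfr was nearest to Ttc3, Chm and Spag9 (0.968, 0.951 and 0.948), and Errfi1 to Cbx5, Ahctf1 and Nup160 (0.922, 0.92 and 0.919). Among the members themselves, Erbb2 and Erbb3 ran together (r = 0.97), as did Tgfa with Erbb2 (0.93) and with Btc (0.91), while Egfr ran against Erbb2 (-0.8).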

How the data were processed

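RNA was sequenced from LE, U and DU of KO and CT females. The authors deposited estimated counts and TPM per gene, made with kallisto 0.46.1 against GRCm39, per the submitters' processing notes; further upstream steps are not given in the sources used here. Estimated counts were rounded to whole numbers and tested per tissue over its 4 groups with edgeR 4.0.16 (R 4.3.3; TMM, filterByExpr with a minimum count of 10 and total of 15, robust quasi-likelihood F test), with Benjamini-Hochberg adjustment over all genes and a threshold of 0.05. SE was the absolute log2 fold change over the root of F. CPM here are counts scaled to library size by TMM. Tissue comparisons averaged the 4 groups. Esr1 was tested by two-sided exact permutation of log2(CPM + 0.05); 3 against 4 DU libraries cannot go below p = 0.0571, and 3 against 3 not below 0.1. Promoter windows came from RefSeq (GRCm38.p6), which is not the build of the counts, so no coordinate was carried between them.

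Library totals of 11.3 to 108 M counts set the counting precision, and no 2 libraries of a group agreed within counting noise (lowest chi-square per degree of freedom 9.76 over 134 pairs). The number in each title names the mouse, so equal numbers in different tissues mark 1 animal. Deviations from group means correlated between such libraries with a median r of 0.381 for LE and U (17 mice, lowest -0.306), 0.489 for DU and U (13 mice, lowest 0.101) and 0.206 for LE and DU (13 mice, lowest -0.184).

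The 10 members, the pathway list, the marker lists and the alternatives were chosen with earlier results of these data known. Named from the pathway list were up to 3 called genes of smallest adjusted p in each genotype comparison and in each day comparison of LE and U; for likeness, the 3 genes of highest Pearson r of log2(CPM + 0.5) among genes reaching a group mean of 10 CPM. Alternatives were median-of-ratios scaling, no filter, DESeq2 1.42.0, limma 3.58.1 with voom weights, limma on log2(TPM + 1) and log2(TPM + 0.1), only the groups compared, libraries left out, a mouse block and a stromal covariate. The fits were also run on simulated counts with the same dispersion for every gene and tissue, and changes only in genes above a minimum level. That setting does not cover genes as low as Ereg and Egf, and no conclusion is drawn from it here. Protein sequences were not used here. The values of 1 gene of the pathway list, which is included in the list's counts, are not reported here.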

Additional observations from a re-analysis of the deposited data

Results flagged for a closer look

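Single libraries stood apart from the rest of their group in 8 of 90 group and gene combinations, where chance gives about 1 in 20. Areg reached 24.8 CPM in CT U at D3.5 in mouse 14, where the next library had 9.06 CPM. Tgfa reached 14.1 CPM in KO U at D3.5 in mouse 32 (next 9.8), 18.9 CPM in CT U at D3.5 in mouse 13 (next 11.0) and 67.6 CPM in CT LE at D0.5 in mouse 4 (next 45.9). Errfi1 was 181 CPM in KO LE at D3.5 in mouse 34 (next 104), and Erbb3 was lowest in KO U at D3.5 in mouse 35, at 19.5 CPM (next 29.9). Egf had 0.734 CPM in CT LE at D3.5 in mouse 14, where the next library had 0.0921 CPM. Egfr was 163 CPM in CT DU at D0.5 in mouse 1 (next 116).

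The knockout effects of D3.5 and D0.5 in LE differed for Tgfa by 1.28 and for Btc by 2.73 on the log2 scale, by the interaction term of the edgeR fit (adjusted p = 0.00344 and 0.000811). In CPM, Tgfa was higher in all 6 KO than in all 4 CT libraries at D3.5, and so was Btc. Per 1000 CPM of the general epithelial markers, the Tgfa ranges overlapped at D3.5.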

How the results depend on the processing

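No called member changed sign in any alternative. Members called in LE at D0.5 were 2, where 23.5% of genes were called. They were 1 with median-of-ratios scaling, without a filter or with only the groups compared, and 4 with voom. At D3.5 they were 3, where 13.4% of genes were called, and 1 with voom. On log2(TPM + 1) and log2(TPM + 0.1), genes called in LE at D3.5 (2095; 1205 higher, 890 lower) were 3920 (3536 higher, 384 lower) and 3796 (3457 higher, 339 lower), and all tested genes had a median of 0.38 and 0.42; without mice 35, 36 and 37 there were 1126. Members called between days in KO LE (2) were 4 on either TPM scale and 1 without those mice, and interaction members in LE (2) were 6 and 5 on the TPM scales. In U at D0.5, genes (789) were 1286 with DESeq2, 2255 with voom and 359 with only the groups compared, and members (0) 2 with voom. In U at D3.5, genes (1) were 5 without a filter, 78 with DESeq2, 1434 with voom, and 0 on both TPM scales, with only the groups compared or without those mice. Interaction genes in U (225) were 523 with DESeq2, 1026 with voom and 49 without those mice, and members (0) 2 with voom; members between days in KO U (4) were 2 on log2(TPM + 1). In DU at D0.5, genes (1311) were 2173 with DESeq2 and 430 with only the groups compared, and members (1) 2 with DESeq2, voom and both TPM scales and 0 with only the groups compared. In DU at D3.5, genes (89) were 244 with DESeq2, 341 with voom, 205 with only the groups compared and 39 without those mice. Interaction genes in DU (301) were 903 with DESeq2, 680 with voom and 168 without those mice, and members (0) 1 with DESeq2 and with voom. Esr1 in U at D0.5 was -0.651 on log2(TPM + 0.1) (exact permutation p = 0.162), and 2 members did not overlap in DU at D3.5 on TPM. The causes were not tested.

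Between DU and U, genes called (0) were 157 with DESeq2, 3493 with voom, 6 on each TPM scale, 7070 with the mouse as replicate block and 3358 without the block in the same mice; members (0) were 1 with voom and 2 with the block. Egfr in LE against U passed with the block in the mice with both tissues (log2 -0.21, edgeR adjusted p = 0.0361) and not without it (-0.22, 0.136). Apart from this and from Egfr and Errfi1 between DU and U, the block turned no call of a member.

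Leaving out 1 library at a time gave 1 to 3 members in LE at D0.5, 2 to 4 at D3.5, 1 to 3 between days in KO LE, 454 to 945 genes and 0 to 1 members in U at D0.5, and 0 to 111 genes in U at D3.5 (111 without KO mouse 33). It gave 134 to 359 interaction genes and 0 to 1 members in U, 605 to 1509 genes and 0 to 2 members in DU at D0.5, 30 to 65 genes in DU at D3.5, and 100 to 561 interaction genes and 0 to 2 members in DU. Low counts limit Ereg, Egf and Areg at D0.5.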
